A study of Mus musculus with 9 samples.

Results

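Transcript levels of 36 genes of the oligodendrocyte lineage and of myelin were examined, which were chosen by name and make up 36 of the 54532 rows of the deposited gene count table. They were sorted by the stage at which each is best known. The first 4 encode transcription factors of the lineage (Olig1, Olig2, Sox10 and Sox8), 2 mark precursors (Lhfpl3 and C1ql1), 6 mark newly formed or committed cells (Neu4, Bmp4, Gpr17, Enpp6, Bcas1 and Tcf7l2) and 24 belong to myelin or to the mature cell. RNA-seq was performed on the hippocampus of 9 juvenile N4 Ube3am-/p+ mice, which carry a mutated maternal copy of Ube3a as a model of Angelman syndrome and had been backcrossed to 129Sv/Ev so that sound could elicit seizures. All 9 mice of both groups carried this allele, and no wild-type mouse is part of the comparison. At postnatal day 21 each mouse received 1 intracerebroventricular injection of 0.5 nmol of Ant-134, a locked nucleic acid inhibitor of the microRNA miR-134 (n = 5), or of the scrambled control oligonucleotide Scr (n = 4). Sound was presented on postnatal days 22, 24 and 26, and the hippocampus on the injected side was taken from surviving mice on day 27, so that each sample is 1 mouse that had also undergone the seizure protocol. The sex of these mice is not given by the labels. The comparison asks which hippocampal transcripts differ after inhibition of miR-134 in mice that went through this protocol.

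Oligodendrocytes arise from dividing precursor cells, pass through a short committed stage in which they stop dividing and extend processes, and then either wrap axons in myelin or are lost. Olig2 and Sox10 are present throughout the lineage, whereas Myrf is switched on at the committed stage and, together with Sox10, drives the genes of compact myelin. Myelin is a stack of cell membrane held together by proteins such as Mbp and rich in cholesterol and galactolipids. In the mouse hippocampus myelin is laid down mainly over the first weeks after birth, so the tissue at this age holds precursors, newly formed cells and myelinating cells side by side. In RNA from whole tissue, fewer cells of a type and less RNA per cell cannot be told apart.

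Between 28583298 and 38431058 reads were assigned to genes in each Ant-134 mouse and between 31985959 and 41978113 in each Scr mouse. All 36 genes passed the filter on low counts, as did 19782 genes of the table, and the smallest count of any of the 36 in any mouse was 149. Levels of one gene across mice are given as CPM, that is counts scaled to the size of the library, and levels of different genes are compared only as FPKM, the authors' values scaled to both gene length and library size. Markers of neurons and astrocytes were present throughout, with summed levels of 8126 to 9787 CPM for 8 neuronal genes and 5243 to 6379 CPM for 8 astrocyte genes over the 9 mice.

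No gene of the 36 passed the test for a difference between Ant-134 and Scr. In edgeR's quasi-likelihood test 0 of 36 had an unadjusted p value below 0.05, the threshold of the study, beside 827 of all 19782 genes tested (4.18%). After Benjamini-Hochberg adjustment over all genes, 0 of the 36 and 0 of 19782 genes (0%) passed. In 0 of the 36 genes were the levels of the 5 Ant-134 mice and the 4 Scr mice fully separate, which was the case in 1.54% of all genes. Log2 fold changes of Ant-134 over Scr lay between -0.20 (Opalin) and 0.13 (Mobp) with a median of -0.028, beside a median of 0.0026 over all genes, and 12 were above and 24 below 0. By stage the medians were -0.019 for the lineage factors, -0.021 for the precursor genes, -0.035 for the newly formed genes and -0.027 for the myelin and mature genes. The smallest p value in edgeR was 0.170 (Gal3st1). The p values printed beside single genes are from two-sided exact permutation tests of CPM over all splits of the mice, of which the smallest possible is 0.00794, and the fold changes, errors and intervals are from edgeR. The 95% interval of the log2 fold change lay within ± 0.5 for 29 of the 36 genes, that is for all 12 genes of the first 3 stages and for 17 of the 24 myelin and mature genes, beside 13058 of all genes tested. The lowest interval bound was -0.65 (Trf) and the highest was 0.63 (Hapln2). The direction depended on single mice. Without Ant-134 mouse 1, 4 genes were above and 32 below 0 with a median of -0.12, without Ant-134 mouse 3, 3 were above and 33 below 0 with a median of -0.061, and without Ant-134 mouse 5, 26 were above and 10 below 0 with a median of 0.055.

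**Figure D1:**
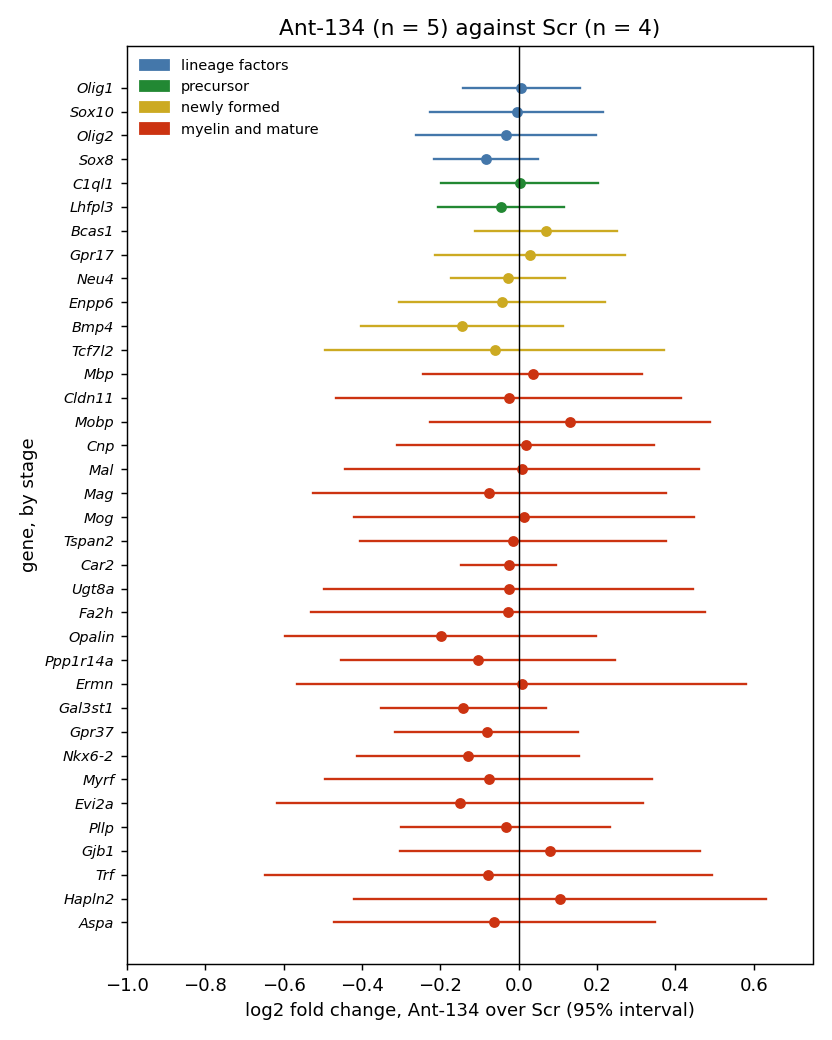
Log2 fold change of Ant-134 (n = 5) over Scr (n = 4) on the horizontal axis for each of the 36 genes, ordered by stage and, within a stage, by mean FPKM. Points are edgeR estimates and lines are 95% intervals. Every interval spans 0, and the intervals of most myelin and mature genes are wider than those of the lineage factors and precursor genes.

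The genes did differ in how evenly they were expressed between mice of 1 group. For myelin and mature genes the standard deviation of log2 CPM had a median of 0.370 over the 5 Ant-134 mice and 0.124 over the 4 Scr mice, beside 0.148 and 0.132 over all genes tested. It was larger in the Ant-134 group for 24 of these 24 genes, for 6 of 6 newly formed genes, for 4 of 4 lineage factors and for 1 of 2 precursor genes, beside 57.8% of all genes. The mice at the ends were the same for most genes. Ant-134 mouse 1 had the highest level of all 9 mice in 21 of the 24 myelin and mature genes, 2 of 6 newly formed genes, 3 of 4 lineage factors and 0 of 2 precursor genes (9.60% of all genes), and Ant-134 mouse 5 had the lowest in 23, 4, 3 and 0 of them (14.7% of all genes). In 21 of the 24 myelin and mature genes mouse 1 was above and mouse 5 below all 4 Scr mice, as in 4.50% of all genes. These genes are read from the same mice, so the counts of genes describe a few hippocampi and are not separate evidence of a wider spread, and no test of the spread was made. Without mouse 1, the median standard deviation of the myelin and mature genes in the Ant-134 group was 0.343, with 23 of 24 genes above the Scr value. Without mouse 5 it was 0.223, with 19 of 24 above, and without mice 1 and 5 it was 0.166, with 15 of 24 genes (62.5%) above the Scr value, beside 49.5% of all genes. These 2 mice were chosen after their values were seen, and leaving out the ends of a group lowers its standard deviation by construction. The labels do not say how much adjoining white matter each dissected hippocampus held, and its share cannot be told apart from the myelin RNA of the hippocampus itself.

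**Figure D2:**
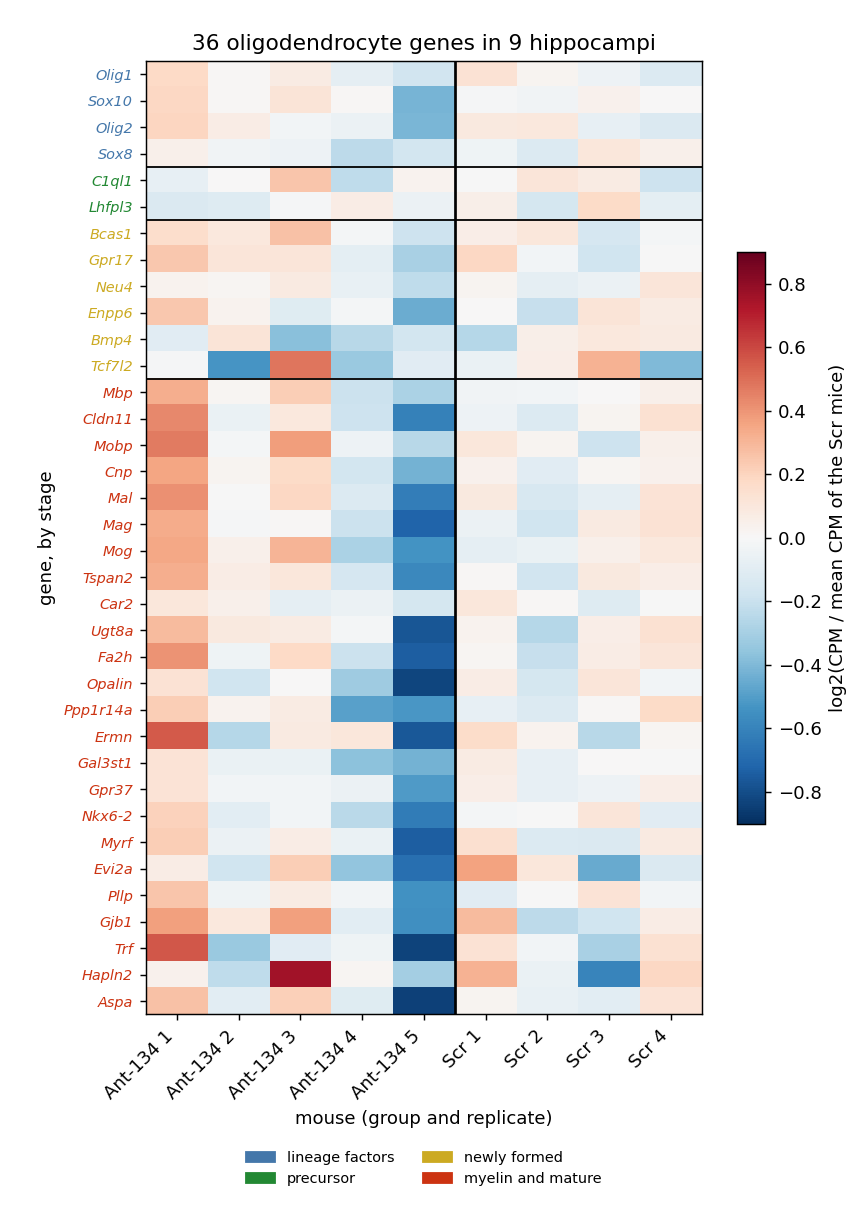
Log2 ratio of the CPM of each of the 36 genes (rows, by stage) in each mouse (columns) to the mean of the 4 Scr mice, from blue (lower) to red (higher). In the myelin and mature block the column of Ant-134 mouse 1 is red and that of Ant-134 mouse 5 is blue over nearly all rows, whereas the 2 precursor rows do not follow these columns.

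Since Ant-134 acts against miR-134, the sequence of this microRNA and its possible sites in the 36 transcripts are shown here, with the seed (bases 2 to 8) or the letters matched to it in capitals. The letters CAGTCAC are complementary to the seed, and in AGTCACA the final A lies opposite base 1 of the microRNA, outside the seed. The mature miR-134 strand is taken from RefSeq (GRCm38.p6, chr12:109734145-109734166, plus strand).
mmu-miR-134-5p: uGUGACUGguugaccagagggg
A match to CAGTCAC or to AGTCACA was present in 7 of the 36 genes within their longest 3′ UTR (19.4%), beside 3199 of 15308 tested genes with a 3′ UTR (20.9%). By stage, 0 of 4 lineage factors, 0 of 2 precursor genes, 2 of 6 newly formed genes and 5 of 24 myelin and mature genes held one. The windows, given 5′ to 3′ on the strand of the transcript, show 1 match in each of 6 genes, which are all but Mbp.
Neu4 site, chr1:94027611-94027640, strand +: gaagatccaaaCAGTCACAtgccaactacc
Tcf7l2 site, chr19:55931554-55931583, strand +: ccaagacgccaAGTCACAgactgagcagac
Opalin site, chr19:41062993-41063022, strand -: catccatccagAGTCACAaagtcgacaagg
Ugt8a site, chr3:125866109-125866138, strand -: acatggagacaAGTCACAactttcataaat
Nkx6-2 site, chr7:139579501-139579530, strand -: agcgaccatggCAGTCACAgacccgaccct
Hapln2 site, chr3:88022208-88022237, strand -: ttatgtctaacCAGTCACtcaaaggtttct
Neu4 and Nkx6-2 hold all 8 letters CAGTCACA, and the others hold 7 of them. Nkx6-2 has another match of 7 letters in the same 3′ UTR. The log2 fold changes of these genes were -0.028 for Neu4, -0.062 for Tcf7l2, 0.036 for Mbp, -0.20 for Opalin, -0.026 for Ugt8a, -0.13 for Nkx6-2 and 0.11 for Hapln2. Of the 7, 5 were below and 2 above 0, and none passed the threshold. A match of letters does not show that a site is used.

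Among the lineage factors, Olig1 had the highest level, with a mean of 89.8 FPKM, followed by Sox10 at 21.8, Olig2 at 21.3 and Sox8 at 19.01 FPKM. Olig1 and Olig2 are related basic helix-loop-helix factors that lie near each other, at chr16:91269772-91271933 and chr16:91225457-91228677 in GRCm38. Olig2, which specifies the lineage, was measured at 62.7, 57.5, 54.1, 52.99 and 41.4 CPM in Ant-134 mice 1 to 5 and 58.5, 58.8, 52.3 and 50.2 CPM in Scr mice 1 to 4. The groups overlapped over most of their range, with Ant-134 mouse 1 above and Ant-134 mouse 5 below every Scr mouse. Its log2 fold change was -0.032 ± 0.10 (SE; 95% interval -0.26 to 0.20; exact permutation p = 0.817). Olig1 was counted at 222, 197, 206, 185 and 173 CPM in Ant-134 mice 1 to 5 and 214, 199, 189 and 179.7 CPM in Scr mice 1 to 4. The same 2 Ant-134 mice were at its ends, though mouse 1 lay only a little above Scr mouse 1, and the log2 fold change was 0.0065 ± 0.07 (SE; 95% interval -0.14 to 0.16; exact permutation p = 0.937).

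Sox10 and Sox8 are SoxE factors, of which Sox10 is needed for terminal differentiation and binds myelin gene promoters. Sox10 (chr15:79154908-79165240) had 76.5, 67.8, 73.2, 67.8 and 50.3 CPM in Ant-134 mice 1 to 5 and 66.8, 65.8, 69.3 and 67.6 CPM in Scr mice 1 to 4. The 4 Scr mice lay close together, with a highest value 1.05 times the lowest, whereas the 5 Ant-134 mice spanned 1.52 times. Its log2 fold change was -0.005, with a 95% interval from -0.23 to 0.22. Sox8 (chr17:25565892-25570686) had the smallest edgeR p value of the stage, at 63.7, 60.6, 59.8, 52.4 and 54.995 CPM in Ant-134 mice 1 to 5 and 60.2, 56.7, 66.4 and 63.9 CPM in Scr mice 1 to 4. Its highest value was in Scr mouse 3 and its lowest in Ant-134 mouse 4, so Sox8 did not follow the order of the other 3 factors, and its log2 fold change was -0.083 ± 0.063 (SE; 95% interval -0.22 to 0.05; exact permutation p = 0.262). Of its exonic bases, 10.6% are shared with an antisense transcript.

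The 2 precursor genes did not follow the order of the myelin genes, and their mean levels were above the median of 3.39 FPKM over all genes tested. C1ql1 (chr11:102939264-102946688), which encodes a secreted C1q-like protein, had a mean of 10.5 FPKM and was counted at 14.7, 15.6, 18.4, 13.2 and 15.8 CPM in Ant-134 mice 1 to 5 and 15.5, 16.7, 16.3 and 13.6 CPM in Scr mice 1 to 4. Ant-134 mouse 3 was highest and Ant-134 mouse 4 lowest. Lhfpl3 (chr5:22746059-23275597), a gene of the LHFPL family of membrane proteins, had a mean of 6.11 FPKM and 18.4, 18.6, 20.04, 21.2 and 19.4 CPM in Ant-134 mice 1 to 5 and 20.9, 18.1, 22.7 and 18.9 CPM in Scr mice 1 to 4. Its highest and lowest values were both in Scr mice, and all 5 Ant-134 mice lay between them. An antisense gene shares 17.6% of its exonic bases. The log2 fold changes were 0.002 ± 0.094 (SE; 95% interval -0.20 to 0.20; exact permutation p = 0.968) for C1ql1 and -0.045 ± 0.075 (SE; 95% interval -0.21 to 0.12; exact permutation p = 0.579) for Lhfpl3. The level in Ant-134 mouse 1 was 0.929 times that in mouse 5 for C1ql1 and 0.948 times for Lhfpl3, beside a median of 1.86 times for the myelin and mature genes.

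Since 2 genes are few, 12 other genes known from precursors, among them Pdgfra and Cspg4, were examined as a list. Their median log2 fold change was -0.060, 0 of 12 were higher and 1 of 12 was lower at an unadjusted p value below 0.05 (4.18% of all genes passed in either direction). Their summed level was 800.0 to 928 CPM in the Ant-134 mice and 821 to 886 CPM in the Scr mice. Tnr (means of 254 CPM with Ant-134 and 248 CPM with Scr) and Ptprz1 (228 and 235 CPM) were the largest parts of this sum. Pdgfra had means of 70.6 and 74.7 CPM, and the part of other cells in these levels was not tested. The gene that passed was Pcdh15, a protocadherin, at 19.7, 23.6, 22.4, 24.8 and 21.05 CPM in Ant-134 mice 1 to 5 and 24.8, 24.5, 27.04 and 26.1 CPM in Scr mice 1 to 4. Its log2 fold change was -0.20 ± 0.070 (SE), with an adjusted p of 0.998 in edgeR. Ant-134 mouse 1 was highest in 0 of these 12 genes and Ant-134 mouse 5 lowest in 4.

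Newly formed cells were represented mainly by Bcas1 and Gpr17. Bcas1 (chr2:170346991-170427845), which marks cells that have just begun to myelinate, was the highest of the stage at 38.7 FPKM. It was measured at 160.4, 153, 173, 142 and 126.1 CPM in Ant-134 mice 1 to 5 and 149, 154, 129 and 142 CPM in Scr mice 1 to 4. Ant-134 mouse 3 was highest and Ant-134 mouse 5 lowest, and the log2 fold change was 0.07 ± 0.083 (SE; 95% interval -0.11 to 0.25; exact permutation p = 0.492). Antisense transcripts share 12.6% of its exonic bases. Gpr17, a G protein-coupled receptor of committed precursors that is switched off as they mature, had a mean of 27.3 FPKM. Its levels were 168, 153, 153, 133 and 116 CPM in Ant-134 mice 1 to 5 and 161, 139, 125 and 141 CPM in Scr mice 1 to 4. Ant-134 mouse 1 was highest and Ant-134 mouse 5 lowest, but Scr mouse 1 came close to the top, and the log2 fold change was 0.029 ± 0.11 (SE; 95% interval -0.21 to 0.27; exact permutation p = 0.802).

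The other 4 genes of this stage had lower levels than Bcas1 and Gpr17. Neu4, a sialidase (chr1:94020451-94028334), had a mean of 6.03 FPKM and 29.2, 28.8, 30.2, 27.3 and 24.4 CPM in Ant-134 mice 1 to 5 and 28.99, 26.9, 27.5 and 30.8 CPM in Scr mice 1 to 4. Its values lay within 1.24 times of each other in the Ant-134 group and within 1.14 times in the Scr group, and its log2 fold change was -0.028 ± 0.068 (SE; 95% interval -0.17 to 0.12; exact permutation p = 0.73). Bmp4 (chr14:46383520-46390669), a secreted ligand that can hold back oligodendrocyte differentiation, had the smallest edgeR p value of the stage and a mean of only 2.95 FPKM. It was counted at 6.58, 7.67, 5.45, 5.96 and 6.32 CPM in Ant-134 mice 1 to 5 and 5.92, 7.35, 7.57 and 7.47 CPM in Scr mice 1 to 4. Scr mice 2 to 4 lay close together, and Scr mouse 1 lay below them, among the Ant-134 mice. The log2 fold change of Bmp4 was -0.14 ± 0.12 (SE; 95% interval -0.40 to 0.11; exact permutation p = 0.246).

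Enpp6, a choline phosphodiesterase that marks differentiating cells, had 38.03, 32.7, 29.7, 31.7 and 23.5 CPM in Ant-134 mice 1 to 5 and 32.2, 27.7, 34.7 and 33.7 CPM in Scr mice 1 to 4. The same mice as in the myelin genes were at its ends, with Ant-134 mouse 1 at 1.62 times the level of mouse 5. Tcf7l2, the transcription factor that acts downstream of Wnt signals, had 9.11, 6.37, 12.8, 7.30 and 8.54 CPM in Ant-134 mice 1 to 5 and 8.81, 9.58, 11.4 and 6.97 CPM in Scr mice 1 to 4. Its highest value was in Ant-134 mouse 3 and its lowest in Ant-134 mouse 2, and it was the least evenly expressed gene of the stage in both groups. Tcf7l2 is also made by neurons of the thalamus, and the summed thalamus markers were likewise highest in mouse 3 of each group, at 226 CPM with Ant-134 and 169 CPM with Scr. Their part in the levels of Tcf7l2 was not tested. The log2 fold changes were -0.042, with a 95% interval from -0.30 to 0.22, for Enpp6 and -0.062, with a 95% interval from -0.50 to 0.37, for Tcf7l2. In a list of 10 other genes of newly formed cells, 0 of 10 passed the unadjusted threshold, the median log2 fold change was 0.022, and Ant-134 mouse 1 was highest in 0 and Ant-134 mouse 5 lowest in 2. The part of other cells in the levels of these 10 genes was not tested.

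**Figure D3:**
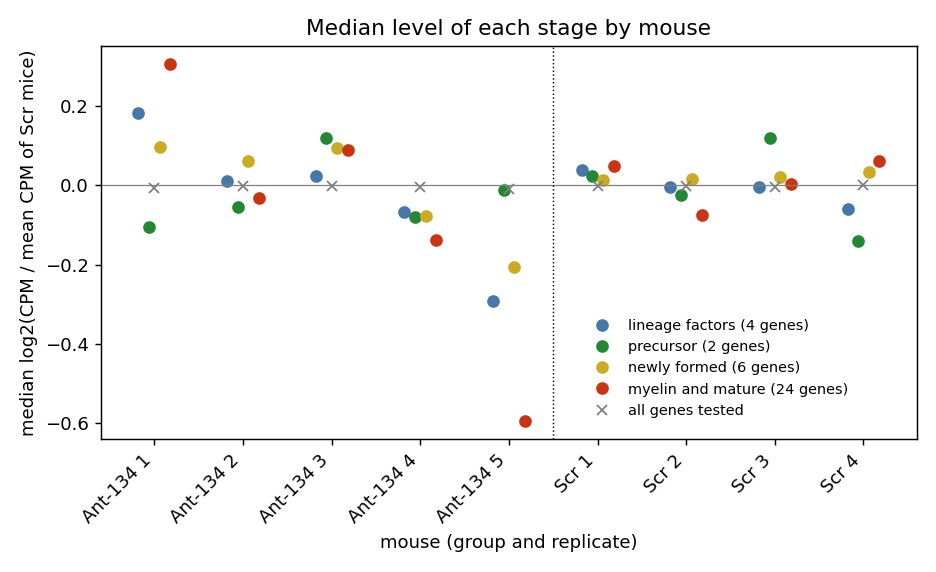
Median over the genes of each stage of the log2 ratio of CPM to the mean of the Scr mice (vertical axis), for each mouse (horizontal axis). Crosses give the median over all genes tested, which stays near 0. The myelin and mature genes reach 0.31 in Ant-134 mouse 1 and -0.59 in Ant-134 mouse 5, whereas in the 4 Scr mice they lie between -0.074 and 0.063.

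The levels of the myelin and mature genes covered a wide range, from a mean of 2.18 FPKM (Aspa) to 507 FPKM (Mbp) with a median of 17.8, beside a median of 21.5 FPKM for the lineage factors. Together the 24 genes took 1.04, 0.816, 0.924, 0.719 and 0.631% of all counted reads in Ant-134 mice 1 to 5 and 0.816, 0.790, 0.810 and 0.847% in Scr mice 1 to 4. The group means were 0.825 ± 0.161% (SD, n = 5) and 0.816 ± 0.0237% (SD, n = 4). The Ant-134 mice thus lay on both sides of the narrow range of the Scr mice. Mbp alone, which joins the inner faces of the myelin membrane, made up 0.349 to 0.532% of the counted reads in the Ant-134 mice and 0.415 to 0.439% in the Scr mice.

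Mbp had the highest mean FPKM of the 36. It was measured at 5330.1, 4297, 4947, 3711 and 3480.2 CPM in Ant-134 mice 1 to 5 and 4161, 4172, 4266 and 4389 CPM in Scr mice 1 to 4. Ant-134 mice 1 and 3 were above, and Ant-134 mice 4 and 5 below, every Scr mouse. The means were 4353 ± 788 (SD, n = 5) CPM with Ant-134 and 4247 ± 106 (SD, n = 4) CPM with Scr, and the log2 fold change was 0.036 ± 0.12 (SE; 95% interval -0.24 to 0.32; exact permutation p = 0.794).

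Cldn11 (chr3:31149920-31164324), which forms the tight junctions of central myelin, had a mean of 180.2 FPKM and 463, 329.5, 367, 302 and 226 CPM in Ant-134 mice 1 to 5 and 332, 315, 350.0 and 377 CPM in Scr mice 1 to 4. The level in Ant-134 mouse 1 was 2.05 times that in mouse 5, and the Scr mice lay between them. Its log2 fold change was -0.026 ± 0.19 (SE; 95% interval -0.47 to 0.42; exact permutation p = 0.873). Mobp (chr9:120149707-120181484), a basic protein of compact myelin, had a mean of 176 FPKM and the highest log2 fold change of the 36. It was counted at 1601, 1143, 1501, 1125 and 973 CPM in Ant-134 mice 1 to 5 and 1245, 1178, 1017 and 1197 CPM in Scr mice 1 to 4. Ant-134 mice 1 and 3 were above all Scr mice, but Ant-134 mice 2 and 4 were below 3 of the 4 Scr mice and mouse 5 below all of them, and the log2 fold change was 0.13 ± 0.15 (SE; 95% interval -0.23 to 0.49; exact permutation p = 0.452).

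Cnp (chr11:100574904-100591729), the cyclic nucleotide phosphodiesterase of the cytoplasmic channels of myelin, had 786, 627, 692, 547 and 458 CPM in Ant-134 mice 1 to 5 and 633, 572, 622 and 632 CPM in Scr mice 1 to 4. Mal (chr2:127633226-127656695), a proteolipid of membrane transport, had 563, 421, 480.5, 387 and 274 CPM in Ant-134 mice 1 to 5 and 449, 382, 399 and 461 CPM in Scr mice 1 to 4. In both genes the 5 Ant-134 mice kept the same order (1, 3, 2, 4, 5 from high to low), and the log2 fold changes were 0.018 for Cnp and 0.0085 for Mal. Mag (chr7:30899176-30914873), an adhesion protein of the membrane next to the axon, had 399, 314, 319.9, 277 and 192 CPM in Ant-134 mice 1 to 5 and 305, 279.9, 334 and 347 CPM in Scr mice 1 to 4. Mog (chr17:37010743-37023398), of the outermost myelin surface, had 157, 128, 153, 102 and 85.2 CPM in Ant-134 mice 1 to 5 and 117, 119, 128 and 132 CPM in Scr mice 1 to 4. Mouse 1 was highest and mouse 5 lowest in each, with a ratio of 2.07 for Mag and 1.85 for Mog.

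Opalin (chr19:41062474-41077113), a sialylated membrane protein of myelinating cells, had the lowest log2 fold change of the 36. It was measured at 45.9, 37.01, 41.997, 33.6 and 23.6 CPM in Ant-134 mice 1 to 5 and 43.8, 37.4, 45.2 and 41.03 CPM in Scr mice 1 to 4. Ant-134 mice 2, 4 and 5 lay below the Scr mice and mice 1 and 3 did not, and the log2 fold change was -0.20 ± 0.17 (SE; 95% interval -0.60 to 0.20; exact permutation p = 0.294). Ermn, which shapes the cytoskeleton of late oligodendrocytes, had 61.9, 35.4, 44.7, 45.3 and 24.9 CPM in Ant-134 mice 1 to 5 and 47.4, 43.1, 35.5 and 42.8 CPM in Scr mice 1 to 4, and the ratio of Ant-134 mouse 1 to mouse 5 was 2.49, the second highest of the 36. Tspan2, a tetraspanin, and Pllp, a proteolipid, had ratios of 1.88 and 1.74 and log2 fold changes of -0.015 and -0.034. An antisense gene covers 54.2% of the exonic bases of Pllp. In all 11 genes of compact myelin and its membranes, Ant-134 mouse 1 was above every Scr mouse and Ant-134 mouse 5 below every Scr mouse, and their median log2 fold change was 0.0073.

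**Figure D4:**
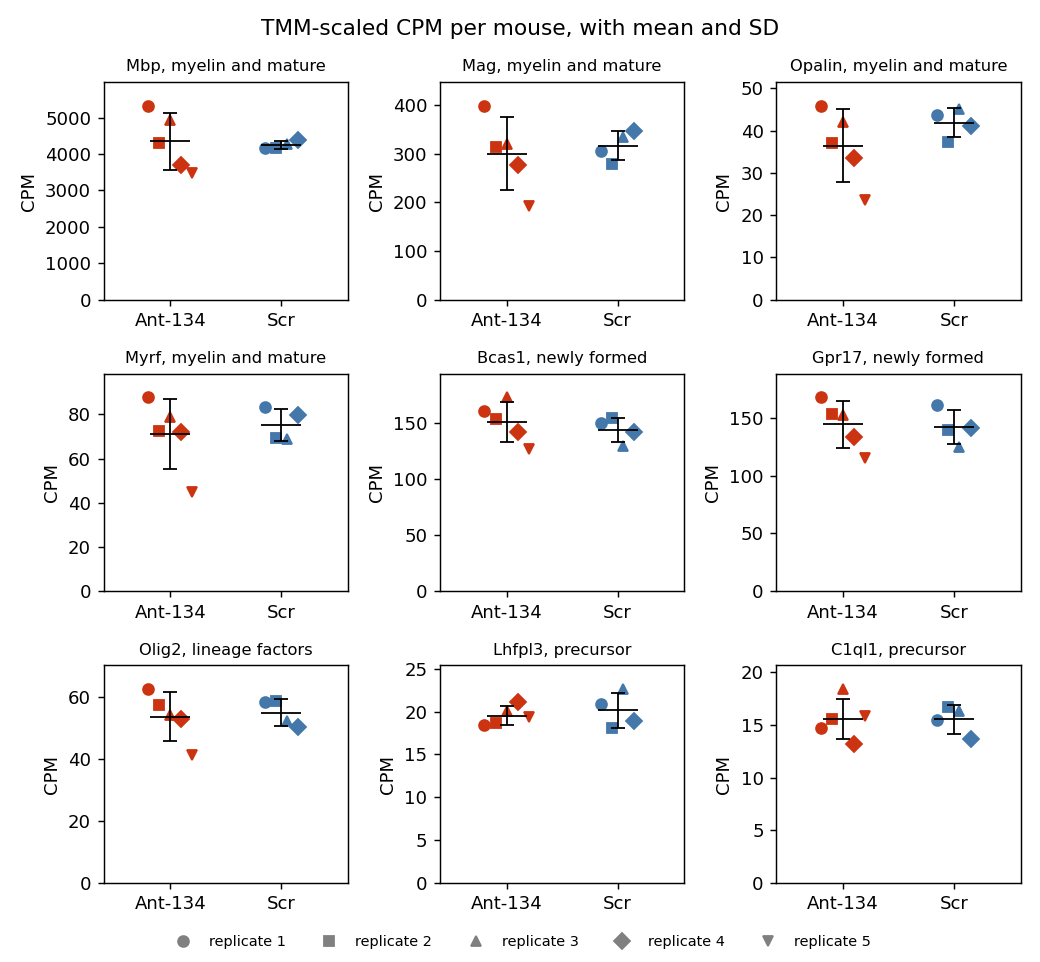
TMM-scaled CPM of 9 of the genes in each mouse, with 1 symbol per replicate number, the group mean and the SD (bars). For Mbp, Mag, Opalin, Myrf and Olig2 the Ant-134 mice spread from replicate 1 at the top to replicate 5 at the bottom while the Scr mice lie closer together than the Ant-134 mice. For Lhfpl3 and C1ql1 neither group shows that order.

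In all 4 enzymes of myelin lipids, Ant-134 mouse 1 was the highest and Ant-134 mouse 5 the lowest of the 9 mice. Gal3st1 (chr11:3983636-3999326), which sulfates galactosylceramide to sulfatide, had the smallest p value of the 36 in edgeR, 0.170. It was measured at 25.7, 22.7, 22.8, 18.3 and 17.7 CPM in Ant-134 mice 1 to 5 and 24.9, 22.5, 23.7 and 23.6 CPM in Scr mice 1 to 4. Only Ant-134 mouse 1 lay above the Scr mice, mice 2 and 3 lay within their range, and mice 4 and 5 lay below it. The means were 21.4 ± 3.39 (SD, n = 5) CPM with Ant-134 and 23.7 ± 1.01 (SD, n = 4) CPM with Scr, and the log2 fold change was -0.14 ± 0.098 (SE; 95% interval -0.35 to 0.069; exact permutation p = 0.294). Without Ant-134 mouse 1 the log2 fold change was -0.22 with an unadjusted p value of 0.0282 in edgeR, and Gal3st1 was then the only 1 of the 36 genes past the threshold.

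Ugt8a, which makes galactosylceramide, had 140.0, 122, 121, 113 and 67.4 CPM in Ant-134 mice 1 to 5 and 117, 96.1, 119 and 126.4 CPM in Scr mice 1 to 4. Fa2h, which hydroxylates the fatty acids of these lipids, had 94.8, 69.7, 80.9, 62.6 and 42.8 CPM in Ant-134 mice 1 to 5 and 72.3, 61.99, 74.8 and 77.1 CPM in Scr mice 1 to 4. Aspa, which frees acetate from N-acetylaspartate, had 16.1, 12.6, 15.6, 12.5 and 7.51 CPM in Ant-134 mice 1 to 5 and 13.7, 12.8, 12.6 and 14.6 CPM in Scr mice 1 to 4. In each the ratio of Ant-134 mouse 1 to mouse 5 was above that of Mbp (2.08, 2.21 and 2.15, beside 1.53). Genes of cholesterol synthesis, the other main lipid of myelin, were examined as a list of 21, of which 0 passed the unadjusted threshold, with a median log2 fold change of 0.0047. Ant-134 mouse 1 was highest in 9 and Ant-134 mouse 5 lowest in 9 of these 21 genes.

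The transcription factors of maturation also varied between mice. Myrf (chr19:10208272-10240748), which is cleaved from the endoplasmic reticulum to activate myelin genes, had 87.8, 72.6, 78.7, 72.05 and 45.1 CPM in Ant-134 mice 1 to 5 and 83.2, 69.1, 68.8 and 79.6 CPM in Scr mice 1 to 4. Ant-134 mouse 5 lay far below the other 8 mice, and the log2 fold change was -0.077 ± 0.18 (SE; 95% interval -0.49 to 0.34; exact permutation p = 0.746). Nkx6-2 (chr7:139579376-139582797), a homeodomain factor, had 20.9, 16.9, 17.7, 15.3 and 11.7 CPM in Ant-134 mice 1 to 5 and 17.9, 18.02, 19.5 and 16.9 CPM in Scr mice 1 to 4. It shares 12.9% of its exonic bases with a gene on the other strand. Mouse 1 was highest and mouse 5 lowest, and the log2 fold change was -0.13 ± 0.13 (SE; 95% interval -0.41 to 0.15; exact permutation p = 0.437).

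Because the myelin genes moved together between mice, their promoters were searched on both strands for ACAAAG, letters bound by SOX factors, and for CTGGCAC or CTGGTAC, letters bound by Myrf. RefSeq promoters of GRCm38.p6 (250 bases before to 50 after a start) were matched for 25 of the 36 genes, with 34 promoters in all, since some genes have several starts whose windows can overlap. The SOX letters were in 8 of 26 promoters of myelin and mature genes (30.8%), beside 18.7% of 32851 promoters, and the Myrf letters in 6 of 26 (23.1%), beside 7.1%. The E-box CAGCTG was in 3 of 26 (11.5%), beside 16.3%. Overlapping windows of Mag hold the same SOX and Myrf matches, which are thus counted more than once in these shares. By gene, the SOX letters were in 7 and the Myrf letters in 5 of the 25 matched genes of all stages. Opalin, Mag and Cnp held both SOX and Myrf letters and are printed 5′ to 3′ in the direction of the gene, with all matches, E-box included, in capitals.
Opalin promoter, chr19:41077064-41077363, strand -: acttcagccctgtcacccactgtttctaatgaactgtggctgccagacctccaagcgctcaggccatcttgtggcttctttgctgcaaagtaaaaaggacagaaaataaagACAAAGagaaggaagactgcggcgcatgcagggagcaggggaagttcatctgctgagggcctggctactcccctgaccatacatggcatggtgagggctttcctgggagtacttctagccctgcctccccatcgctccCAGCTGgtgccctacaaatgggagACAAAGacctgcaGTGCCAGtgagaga
Mag promoter, chr7:30914814-30915113, strand -: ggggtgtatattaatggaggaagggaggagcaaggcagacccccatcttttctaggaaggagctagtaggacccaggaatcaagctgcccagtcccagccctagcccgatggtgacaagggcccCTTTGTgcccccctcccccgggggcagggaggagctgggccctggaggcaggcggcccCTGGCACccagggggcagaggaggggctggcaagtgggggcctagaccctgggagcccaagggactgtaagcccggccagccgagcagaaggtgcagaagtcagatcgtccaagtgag
Cnp promoter, chr11:100574689-100574988, strand +: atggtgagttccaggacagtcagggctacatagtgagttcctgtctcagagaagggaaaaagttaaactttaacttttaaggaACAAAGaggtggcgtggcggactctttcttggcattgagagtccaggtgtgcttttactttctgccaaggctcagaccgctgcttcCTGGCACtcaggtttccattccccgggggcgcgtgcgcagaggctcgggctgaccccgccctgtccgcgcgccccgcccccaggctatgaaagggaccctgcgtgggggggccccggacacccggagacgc
The first 250 bases of each lie before the start, and no 2 matches overlap in these windows. The Opalin promoter belongs to the gene with the lowest fold change and those of Mag and Cnp to genes of high level, and in all 3 genes Ant-134 mouse 1 was highest and mouse 5 lowest. Other genes with the same order, such as Mal, Ermn and Ugt8a, held neither set of letters in this window. Binding was not measured in these samples.

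The remaining mature genes have more varied functions and were less uniform. Trf, the iron carrier transferrin, had 22.5, 12.1, 14.3, 14.9 and 8.57 CPM in Ant-134 mice 1 to 5 and 16.8, 15.1, 12.5 and 16.8 CPM in Scr mice 1 to 4, the widest range of the 36, with Ant-134 mouse 1 at 2.63 times mouse 5. Its log2 fold change was -0.078 ± 0.25 (SE; 95% interval -0.65 to 0.49; exact permutation p = 0.746), and another gene of the same strand covers 63.5% of its exonic bases. The values of Trf, and of the other genes named here as sharing exonic bases, may therefore miss or include reads of the other gene. Car2, the cytosolic carbonic anhydrase, had 125.6, 121, 111, 113 and 105 CPM in Ant-134 mice 1 to 5 and 125.7, 118, 108 and 117 CPM in Scr mice 1 to 4, the narrowest range of the 24, with a ratio of 1.20. Car2 is also made by other cells of the brain, and its log2 fold change was -0.026 ± 0.057 (SE; 95% interval -0.15 to 0.095; exact permutation p = 0.667).

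Gjb1, a connexin of oligodendrocyte gap junctions, had 10.3, 8.55, 10.3, 7.50 and 5.46 CPM in Ant-134 mice 1 to 5 and 9.75, 6.79, 7.07 and 8.38 CPM in Scr mice 1 to 4. Hapln2, a link protein of the matrix at nodes of Ranvier, had 6.76, 5.61, 11.1, 6.68 and 5.33 CPM in Ant-134 mice 1 to 5 and 8.18, 6.31, 4.37 and 7.50 CPM in Scr mice 1 to 4. Its high value in Ant-134 mouse 3 and its low value in Scr mouse 3 set its order apart from that of the other genes. Evi2a, a membrane protein that shares 19.2% of its exonic bases with another gene, had 16.7, 14.1, 18.6, 12.5 and 9.96 CPM in Ant-134 mice 1 to 5 and 20.5, 17.1, 11.6 and 14.5 CPM in Scr mice 1 to 4, and its spread was alike in both groups (SD of log2 CPM 0.354 and 0.347). Ppp1r14a, an inhibitor of myosin phosphatase, and Gpr37, an orphan receptor, had log2 fold changes of -0.10, with a 95% interval from -0.45 to 0.25, and -0.082, with a 95% interval from -0.31 to 0.15. In both, Ant-134 mouse 1 was highest and mouse 5 lowest.

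**Figure D5:**
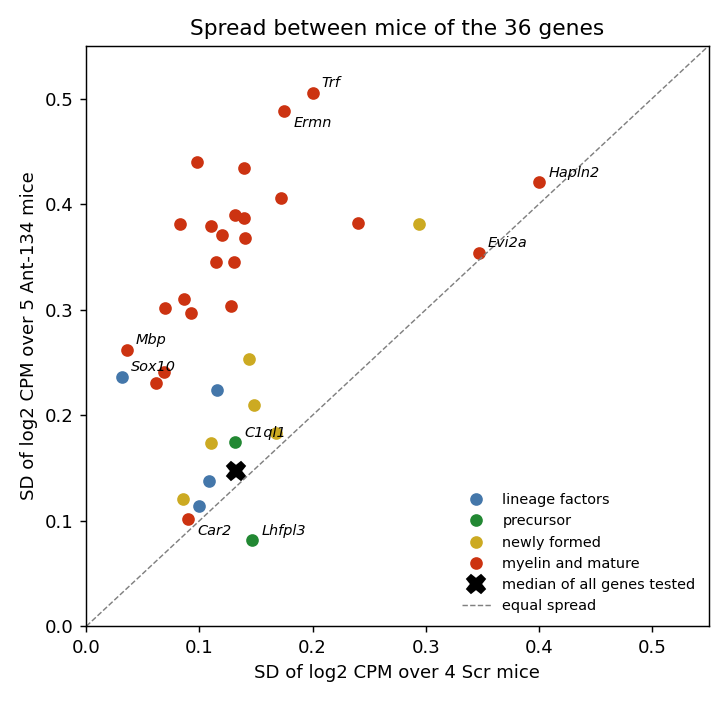
Standard deviation of log2 CPM over the 5 Ant-134 mice (vertical axis) against that over the 4 Scr mice (horizontal axis), 1 point per gene, coloured by stage. The dashed line marks equal spread and the cross the median of all genes tested. Only Lhfpl3 lies below the line, and several genes lie near it, among them Sox8, Bmp4, Car2, Evi2a and Hapln2.

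A list of 27 other genes of mature oligodendrocytes was examined in the same way. In 0 of 27 was the unadjusted p value below 0.05, and the median log2 fold change was -0.0027. Their summed level was 1656, 1439.8, 1526, 1315 and 1213 CPM in Ant-134 mice 1 to 5 and 1504, 1439.7, 1327 and 1448 CPM in Scr mice 1 to 4. Mouse 1 was thus highest and mouse 5 lowest in the sum, and over the single genes Ant-134 mouse 1 was highest in 13 and Ant-134 mouse 5 lowest in 18 of 27.

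Markers of other cells and of neighbouring tissue were read beside these results. Summed choroid plexus markers (8 genes) were 2599, 308, 684, 68.4 and 101 CPM in Ant-134 mice 1 to 5 and 273, 1086, 2044 and 81.0 CPM in Scr mice 1 to 4. Ant-134 mouse 1 was highest in 8 of 8 of these. The median log2 ratios of the myelin and mature genes in the same mice were 0.31, -0.031, 0.088, -0.14 and -0.59 with Ant-134 and 0.049, -0.074, 0.0045 and 0.063 with Scr. Within the Ant-134 group both ran from mouse 1 through 3 and 2 down to mice 4 and 5, with these last 2 in opposite order, whereas in the Scr group the mouse highest in the markers was the third of 4 in the myelin genes and the mouse lowest in them was the highest. Ependymal markers (6 genes) had median log2 ratios of 0.28, -0.43, -0.97, -0.54 and -0.92 in Ant-134 mice 1 to 5 and -0.21, -0.016, 0.31 and -0.22 in Scr mice 1 to 4, with Ant-134 mouse 1 highest in 3 and mouse 5 lowest in 3 of the 6. Summed thalamus markers (9 genes), from a region beside the hippocampus, were 140.2, 147, 226, 139 and 132 CPM in Ant-134 mice 1 to 5 and 133 to 169 CPM in the Scr mice, with the highest value in Ant-134 mouse 3. Schwann cell markers, of which 3 of 5 could be tested, were at 7.51 to 11.1 CPM in the Ant-134 mice and 7.13 to 9.08 CPM in the Scr mice, with 0 of 3 past the threshold. Between the groups, 6 of 10 microglial markers, 7 of 8 markers of meningeal fibroblasts and 2 of 6 ependymal markers were lower with Ant-134 at an unadjusted p value below 0.05, beside 533 of all 19782 genes, and 0 of them after adjustment, with median log2 fold changes of -0.20, -0.49 and -0.31. Higher at this threshold were 1 of 8 neuronal (Snap25) and 1 of 9 thalamus markers (Lef1), beside 294 of all genes. The part of these tissues in the levels of the 36 genes was not tested.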

How the data were processed

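Poly-A-selected RNA of 9 hippocampi, 1 per mouse, was sequenced as paired-end reads. Per the labels and the methods of the study, the authors aligned reads to GRCm38 (mm10) with HISAT2 2.0.5 and counted them per gene with featureCounts 1.5.0-p3. The strand setting and annotation release are not given in the sources used here. They deposited counts without normalization and FPKM values, computed from counts, gene length and library size. Groups and replicate numbers were taken from sample titles.

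The counts were tested with edgeR 4.0.16 in R 4.3.3, with genes kept by filterByExpr (minimum count 10), TMM scaling and a robust quasi-likelihood test of all genes without covariates. Standard errors and 95% intervals came from its F statistic, with Benjamini-Hochberg adjustment over 19782 genes. Levels are TMM-scaled CPM. The floor of 3 counts corresponds to 0.0715 to 0.105 CPM and covers counting error only. The code was tested on simulated counts. Libraries within a group all differed beyond counting noise (chi-square per gene 7.56 to 19.0).

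Alternative fits used DESeq2 1.42.0 on unfiltered counts, DESeq2 size factors, no filter, a stricter filter, no robust estimation, a replicate block, a covariate of Y-linked genes, limma 3.58.1 with a pseudocount of 1 or 0.1 on log2 FPKM, and leaving out each mouse. Leaving out mice 1 and 5 from the spread was chosen after seeing the data. The 36 genes, their stages and the lists were chosen with earlier results of these data known, and 1 gene of a list is not reported here. All 36 were described. Values per mouse were given for the gene with the smallest p value and the 3 genes (1 of 2 precursor genes) with the highest FPKM in each stage, and for further genes chosen after their values were seen. Exon overlaps and 3′ UTRs came from GENCODE M21 on GRCm38, and promoter and microRNA sequences from RefSeq GRCm38.p6.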

Additional observations from a re-analysis of the deposited data

Results flagged for a closer look

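Of 92 groups of values examined, 2 held 1 mouse far from the others of its group, where chance gives about 1 in 20, or 4.6. For Bmp4, Scr mouse 1 was at 5.92 CPM and the other 3 Scr mice at 7.35 to 7.57 CPM. For Hapln2, Ant-134 mouse 3 was at 11.1 CPM and the other 4 Ant-134 mice at 5.33 to 6.76 CPM. The stage medians and the shares of counted reads held no mouse whose gap to the next was large enough to be named by this measure.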

How the results depend on the processing

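None of the 36 genes passed the unadjusted threshold of 0.05 in edgeR, in DESeq2 without a filter, with DESeq2's size factors, in edgeR without a filter, with at least 10 counts in every sample, without robust estimation, with a covariate of Y-linked genes, with the replicate block or with limma on FPKM. The smallest p value over these alternatives was 0.0970, in edgeR without a filter. Leaving out single mice gave 0 to 1 such genes, the 1 being Gal3st1 without Ant-134 mouse 1, and 0 after adjustment. The median log2 fold change of each stage moved by less than its spread between mice, with sign changes when mice were left out and with the replicate block. With the block the median was 0.048 for the lineage factors, -0.025 for the precursor genes, 0.030 for the newly formed genes and 0.073 for the myelin and mature genes. Over all genes, the count with an unadjusted p value below 0.05 was 827 and became 1775 without a filter in edgeR and 1027 in DESeq2, which was run without a filter. After adjustment 0 genes passed, but 16 did in DESeq2 without a filter, 14 in edgeR without a filter, 2 with the replicate block and 0 to 17 when leaving out single mice, 17 without Ant-134 mouse 1. The cause was not tested. With the replicate number as a block, 26 of the 36 genes were above and 10 below 0 and 16 changed sign, but no Scr mouse has the number 5, so this fit also takes Ant-134 mouse 5 out of the contrast, and leaving out that mouse alone gave the same 3 counts. The correlation of deviations across genes was -0.15 to 0.053 for same-numbered mice, beside -0.28 to 0.29 for mice of different numbers. With so few mice and values inside the range of the other pairs, this measure cannot decide whether the numbers pair the mice. The labels name no such pairing. With 5 and 4 mice the intervals of several myelin and mature genes reached beyond ± 0.5 on the log2 scale. The lowest count of any of the 36 genes in any mouse was 149, for Hapln2, and the part of depth in these intervals was not tested.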
